A study of Mus musculus with 12 samples.

Results

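A group of 150 transcripts was followed in polysome-bound RNA of mouse oocytes, chosen by their FPKM in wild-type (WT) oocytes, as those that rose most between metaphase I (MI) and metaphase II (MII). The rule took genes with both WT MII libraries at or above 50 FPKM (sequenced fragments by transcript length and library size), ranked them by log2 of the ratio of mean WT MII to mean WT MI after adding 1 FPKM to each, and kept the 150 highest. Symbols with 15 prefixes of ribosomal, proteasomal, respiratory-chain, translation-factor, transporter, zinc-finger, spliceosomal, ubiquitin-conjugating and kinesin genes had been dropped. The table held 23235 genes, of which 1572 were eligible under the rule and 150 were taken. Because the WT MI and WT MII values chose these transcripts, every comparison that holds those libraries is a description here, without a test. The Cnot6l-/- (KO) libraries and the libraries of the germinal vesicle (GV) stage were not used by the rule.

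A fully grown oocyte waits at the GV stage, in prophase of meiosis, with a store of maternal mRNAs and almost no transcription. When meiosis resumes, the nuclear envelope breaks down, the oocyte passes through MI, and it arrests again at MII until fertilization. Many stored mRNAs have short poly(A) tails and are translated only after cytoplasmic polyadenylation, which is directed by U-rich elements close to the polyadenylation signal, while other mRNAs lose their tails and leave the polysomes. Cnot6l encodes a deadenylase subunit of the CCR4-NOT complex, which shortens poly(A) tails.

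Oocytes were from C57BL/6 mice at postnatal day 21, and both genotypes were sampled at GV (48 h after PMSG, a gonadotropin), MI (8 h in culture) and MII (16 h in culture), with 2 libraries in each of 6 groups, 12 in all. Stages are those of the labels, and whether KO and WT oocytes were equally advanced in meiosis at these times was not tested. The labels do not say whether the 2 libraries of a group are separate pools of oocytes, so the p-values below measure only the spread between libraries, which may be technical. The number of oocytes in a library and the part of Cnot6l that the allele removes were not among the details recorded in the labels. Values of a group are written as replicate 1/replicate 2. Cnot6l had 38.7/16.1 FPKM in WT GV against 6.28/21.6 in KO GV, so the genotypes overlapped there. At MI the WT libraries held 68.5/47.9 FPKM against 23.5/16.5 in KO, and at MII 65.2/49.4 against 16.4/16.01, with no overlap at either stage. All 13 oocyte markers were above 1 FPKM in every library. Of 22 cumulus and granulosa cell markers, 7 to 14 were above 1 FPKM, and their summed level ran from 88.2 and 102 FPKM in WT MII to 390.1 and 402 FPKM in WT GV. Of 19 markers of theca, stroma and blood, 2 to 6 were above 1 FPKM, with sums from 28.7 to 97.6 FPKM. Fewer such cells and less RNA per cell cannot be told apart, and the part of these cells in the results below was not tested. Read numbers are unknown, since the deposited values are FPKM, and total RNA of the same oocytes was not analysed here, so a change in a transcript's level and a change in its share on polysomes cannot be told apart.

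The ends of these transcripts were read first, because the elements that direct cytoplasmic polyadenylation lie there. Of the 150 members, 147 were matched to coding transcripts of GENCODE M1 on mouse build NCBIM37 (mm9), all on the same chromosome and strand as in the authors' table, and 119 of them ended within 50 bases of the end given there. The letters TTTTAT or TTTTAAT (the DNA letters of the cytoplasmic polyadenylation element, searched on the transcript's own strand) were found in the last 100 bases of 56 of 138 members long enough to search, a share of 40.6%. The same letters were in 30.5% of eligible genes and in 20.2% of all genes tested. They were counted anywhere in the window, also where they lie 3′ of the polyadenylation signal, as in Yap1 and Ccdc84. The polyadenylation signal AATAAA was in 73.9% of members, 74.6% of eligible genes and 65.8% of all genes tested. TTTTAAT and AATAAA share letters where they occur as TTTTAATAAA. Below are the first 8 members in the order of the ranking whose element lies 5′ of the signal or overlaps it within a 30-base stretch, and whose transcript end lies within 50 bases of the authors' end. Capitals mark the element and the signal, and the stretches are on mm9, 5′ to 3′ on the strand given.
Llgl2 (chr11:115717051-115717080, plus strand): aaaactgagtTTTTAATAAAcaccttgttt
Dcp1a (chr14:31340197-31340226, plus strand): aaatatatttTTTTAATAAAatttcaaaac
Cdc45 (chr16:18780550-18780579, minus strand): actatatggtTTTTAATAAAatgtttgatg
Cnn3 (chr3:121161079-121161108, plus strand): attgtattTTTTATaAATAAAtattttttt
Nf2 (chr11:4665858-4665887, minus strand): taagtgattgTTTTAATAAAaactctaagc
Wdr47 (chr3:108448599-108448628, plus strand): ctgtgctTTTTATttcAATAAAgacctctt
Gbf1 (chr19:46360960-46360989, plus strand): tggactTTTTATggtatAATAAAtgtctta
Arntl (chr7:120457602-120457631, plus strand): agttaaatatTTTTAATAAAtgtttccctt

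In 5 of the 8 stretches the element and the signal form the single run TTTTAATAAA, and in Cnn3, Wdr47 and Gbf1 the element TTTTAT stands 1, 3 and 5 bases before the signal. A match is a description of the letters and not evidence of a working site. The share of members with the element was above that of eligible genes in every window tried: it was 29.2% against 18.1% in the last 50 bases and 54.4% against 40.7% in the last 200 bases. These values are of the longest coding transcript of each gene, whose median length was 3370 bases in members, 2265 in eligible genes and 2835 in all genes tested, with a median 3′ UTR of 908.5, 755 and 967 bases. With the shortest transcript the median length was 1231, 1137 and 1350 bases and the median 3′ UTR 389, 416 and 487 bases, so the order of the lengths depends on the transcript taken. The share with the element in the last 100 bases was then 38.5%, 27.6% and 17.6%.

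**Figure D1:**
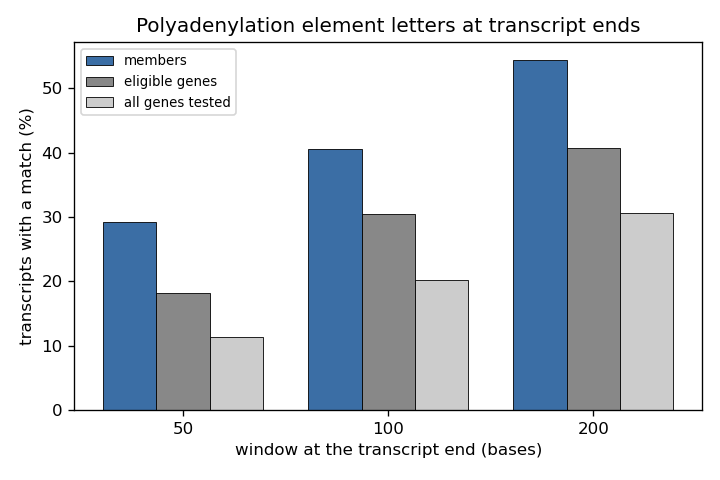
Share of transcripts, in percent, that hold TTTTAT or TTTTAAT in the last 50, 100 or 200 bases, for the members, the eligible genes and all genes tested. In the last 100 bases the shares are 40.6%, 30.5% and 20.2%, and the members' bar is the highest in each window.

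In WT oocytes the members did not first appear at MII: they were already in polysome RNA at GV, most were lower at MI, and they were highest at MII. The median member was at 75.1 and 71.7 FPKM in the WT GV libraries, at 45.1 and 47.1 FPKM at MI, and at 143.5 and 144.2 FPKM at MII. The lowest of the 3 WT means was at MI in 126 members and at GV in 24, and the highest was at MII in 138 and at GV in 12. Both MI libraries lay below both GV libraries for 99 members (55.2% of all genes tested did so) and above them for 12 (9.38% of all genes), while 39 overlapped. Among eligible genes 43.8% lay below and 32.5% above. Both MII libraries lay above both GV libraries for 129 members (13.4% of all genes) and below them for 6 (56.8% of all genes), while 15 overlapped. The name "joining polysomes late" thus fits these transcripts only in part, and only Spp1 was listed at 0 in both WT GV libraries. For all 150 both MII libraries lay above both MI libraries (17.5% of all genes), which the rule required in part. By taking a high MII over a low MI, the rule also favoured a low MI and a high MII against GV.

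In KO oocytes the median member stayed within a narrow band, at 93.0 and 89.3 FPKM in the GV libraries, 106 and 98.1 FPKM at MI, and 84.3 and 82.1 FPKM at MII. In these FPKM levels, neither the low level of WT MI nor the high level of WT MII was seen there. The rule chose both of those WT levels, so nothing is read from this contrast about the members. The course in KO also depends on the scaling. The members' median log2 change was 0.33 from KO GV to KO MI and -0.32 from KO MI to KO MII in FPKM. With median scaling, described below, these changes were -0.051 and 0.24. KO MI lay above WT MI with no overlap for 128 members (69.5% of all genes tested) and below it for 1 (3.13% of all genes). KO MII lay below WT MII with no overlap for 120 members (10.6% of all genes) and above it for 6 (48.9% of all genes). These counts hold libraries of the rule, and nothing is read from them about the members. Members made up 1.19% of the summed FPKM in each WT MI library, 4.34% and 4.22% in WT MII, and 1.657% and 1.56% in KO MII, leaving out Mir762. The summed FPKM of a library itself ranged from 884142 in WT MII to 1663871 in KO MI, so a level and a share of the total can move differently.

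**Figure D2:**
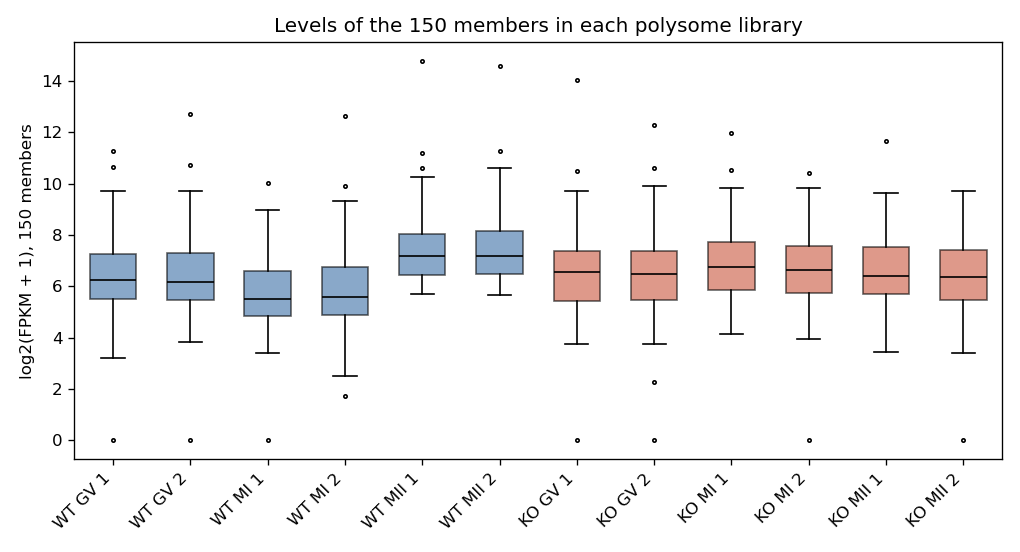
Levels of the 150 members in each of the 12 libraries, as log2(FPKM + 1). Boxes span the quartiles with the median as a line, whiskers reach the farthest value within 1.5 box lengths, and dots are members beyond that. The WT MI boxes are lowest and the WT MII boxes highest, which the rule favoured, while the 6 KO boxes lie between them.

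The 20 members highest in the ranking included genes of cell polarity, membrane proteins, signalling and DNA replication. Mir762 ranked first, but its rise rests on a very short feature that overlaps Bcl7c, another member, on the opposite strand: it was at 0/6377 FPKM in WT MI and at 27957/24549.7 FPKM in WT MII, and was listed at 0 in 1 library each of KO MI and KO MII. MicroRNA symbols are outside the rule for naming, and Mir762 is named here after its values were seen. Llgl2, a regulator of cell polarity, was at 35.05/24.6 FPKM in WT GV, 18.2/4.63 at MI and 137/59.6 at MII. Its 2 MII libraries differ over 2-fold, and in KO it was at 18.4/17.00 FPKM at GV, 63.9/42.7 at MI and 38.95/34.3 at MII. Bcl7c, a subunit of the BAF chromatin remodelling complex, was at 186/178 FPKM in WT MI and 1179.6/912 in WT MII, against 351/195 in KO MI and 206/72.3 in KO MII. KO MII was thus below WT MII for both genes.

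Ctnnb1 encodes beta-catenin, which links cadherins to actin and carries Wnt signals to the nucleus. It was at 101/78.8 FPKM in WT GV, 35.4/53.3 at MI and 240.5/175 at MII, lowest at MI and highest at MII, with no overlap of MII with the other stages. In KO it was at 137/186 FPKM at GV, 111/110.0 at MI and 73.2/90.3 at MII, and the stages did not overlap in that falling order. It fell from KO GV to KO MII by limma across all genes (log2 change -0.96, SE 0.282, adjusted p = 0.0427), and leaving out any library of WT GV or of KO ended that call (adjusted p up to 0.219 over all alternatives). Srp14, part of the signal recognition particle that brings ribosomes to the endoplasmic reticulum, was at 287/296 FPKM in WT GV, 150.4/111 at MI and 621/600.4 at MII. In KO it stood at 298/344 FPKM at GV, 295/246 at MI and 170.3/176 at MII, and fell from GV to MII (log2 change -0.88, SE 0.175, adjusted p = 0.00686), a call lost without KO GV replicate 2. Ern1, the IRE1 sensor of unfolded proteins, reached 224/219 FPKM in WT MII from 41.8/54.5 at MI, while all 6 KO libraries lay between 64.7 and 114 FPKM and no KO comparison was called.

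Among the other members of the top 20, Kcnq1, a potassium channel, went in WT from 9.56/10.6 FPKM at MI to 54.3/51.9 at MII, and was at 16.8/14.4 in KO MI and 29.4/22.99 in KO MII. Isl2, a LIM homeodomain factor, was at 19.7/8.96 FPKM in WT MI and 103/57.3 in WT MII, against 80.05/54.1 and 81.2/73.3 in KO. For Isl2 the KO MII libraries lay within the range of the WT MII libraries. Tspan9, a tetraspanin, was at 16.7/9.01 FPKM in WT MI, 74.7/71.98 in WT MII and 51.6/42.1 in KO MII. Helq, a DNA repair helicase, was at 11.6/31.6 FPKM in WT MI and 97.5/92.4 in WT MII, against 50.05/63.7 and 40.8/29.9 in KO MI and MII. Vwa2, an extracellular matrix protein, went from 12.8/15.9 to 58.9/66.04 FPKM in WT. For these 5 genes no KO comparison passed the test. Bri3 and Ptov1 reached 241/281 and 161/143 FPKM in WT MII, and their KO libraries split by replicate, with 153/60.7 and 153/36.5 FPKM in KO MI.

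The last members taken by the rule had a ratio of 2.37 (Gm15772), 2.36 (Mesp2) and 2.35 (Fam96b), and the first genes left out had 2.35 (Cecr2), 2.35 (Itsn2) and 2.33 (Tm7sf3), so the border fell within a gradual slope.

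The members were then counted on lists of the classical programme of oocyte maturation. Of 20 eligible genes on a list of mRNAs known to be translated on maturation, 1 was a member, Dcp1a, which is 0.667% of members against 1.27% of eligible genes. Of 29 eligible genes of meiotic cell cycle control, 1 was a member, Cks1b, which is 0.667% against 1.84%. These differences were not tested. No member came from the 43 eligible oocyte-specific factors, the 9 of fertilization, the 20 of metabolism, the 26 chaperones or the 16 of nuclear transport. None was an oocyte marker (12 eligible), and neither list of somatic markers nor the list of early embryo genes had an eligible gene. Dcp1a, an activator of mRNA decapping, was at 240.1/230.0 FPKM in WT GV, 128/165 at MI and 693/615 at MII. In KO it stayed at 265/262 FPKM at GV, 217/281 at MI and 232/258 at MII, and was not called from MI to MII (log2 change -0.01, SE 0.177, adjusted p = 0.989). For comparison, 17 of the 23 tested genes on the maturation list were called higher in KO MI than in KO GV. In KO MII 15 were higher than in KO GV, and Dcp1a was in neither group. Of all genes tested 8.89% and 5.89% were called higher in these comparisons, and of eligible genes 47.1% and 31.6%. The list was not counted under other scalings. Cks1b, a subunit that binds cyclin-dependent kinases, was at 662/530.4 FPKM in WT GV, 502/639 at MI and 1575/1568 at MII, and at 619/692, 915/729 and 407/564 in KO. In WT the GV and MI libraries overlapped and MII was far above them, while in KO the level fell from MI to MII (log2 change -0.77, SE 0.187, adjusted p = 0.0347), a call that 11 of 22 settings of the analysis gave.

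Apart from predicted genes, DNA replication and repair was the list with the largest number of members, 9, or 6.0% of members against 2.35% of eligible genes (37). This difference was not tested, and the list was seen to be the largest only after counting. Some of the 9 entered by the letters of their symbols, as said below, and Smc4 is a condensin subunit. The rank and the shares were not counted again without them, so both hold only for the list as written. Cdc45, a component of the replicative helicase, was at 67.03/75.7 FPKM in WT GV, 24.3/35.02 at MI and 118/137 at MII, and at 69.8/93.5, 59.2/76.4 and 56.9/53.7 in KO. Mcm2, a subunit of the same helicase, was at 137/114 FPKM in WT GV, 128/192 at MI and 419/424 at MII. KO Mcm2 was at 161/88.1 FPKM at GV, 252/242 at MI and 242/325 at MII, higher at MII than at GV (log2 change 1.23, SE 0.291, adjusted p = 0.0162), a call lost without KO GV replicate 2 or KO MII replicate 2 and given by 18 of 22 settings. Msh6, which recognises mismatched bases, was at 74.00/73.6 FPKM in WT GV, 45.7/41.98 at MI and 195/136 at MII. In KO it rose from 58.5/60.3 FPKM at GV to 129/159 at MI and 173/180.2 at MII (log2 change 1.56, SE 0.231, adjusted p = 0.00127 from GV to MII), so that KO MII lay within the WT MII range. That call held in all 22 settings. It also rose from GV to MI (log2 change 1.26, SE 0.231, adjusted p = 0.00548), a call lost without KO MI replicate 2, and not given with median scaling (log2 change 0.87, adjusted p = 0.0534) or with equal totals.

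Smc4, a condensin subunit, had another course: 313/259 FPKM in WT GV, 55.7/47.2 at MI and 156/117 at MII, so its MII level stayed below GV. In KO it was at 193/222 FPKM at GV, 247/238 at MI and 250.1/279 at MII, above WT at both later stages, and no KO comparison was called. Pola2, a subunit of DNA polymerase alpha-primase, was at 35.5/30.5 FPKM in WT MI, 86.6/114 in WT MII, 70.9/83.4 in KO MI and 50.95/38.4 in KO MII. Mcm3ap, which acts in mRNA export and entered the list by its name, was at 42.5/40.3 and 134/139.7 FPKM in WT MI and MII and at 75.1/84.7 and 76.8/54.1 in KO. Parp12 and Xrcc6bp1, named beyond the rule's limit, also entered the list by the letters of their symbols. Of the 9 members, 2 were higher in KO MI than in KO GV (Msh6 and Mcm2), and 3 were higher in KO MII than in KO GV (these and Top1, named beyond the rule's limit), beside 8.89% and 5.89% of all genes tested. The MI call of Mcm2 was given by 6 of 22 settings, and the MII call of Top1 by 12. Of 163 tested genes on the list, 27 were higher in KO MI and 20 in KO MII than in KO GV. From KO MI to KO MII 12 of them were lower, beside 7.18% of all genes tested.

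Chromatin factors gave 5 members of 45 eligible genes, 3.33% of members against 2.86% of eligible genes. These shares and those of the lists below were not tested. Pcgf1, a Polycomb ring finger protein, was the most abundant of them, at 1594/1697 FPKM in WT GV, 1045/958 at MI and 2349.6/2468 at MII. In KO it was at 1451/1569 FPKM at GV and 1473/1366 at MI, and fell to 775/831 at MII (log2 change -0.82, SE 0.0837, adjusted p = 0.000324 from MI, log2 change -0.91, SE 0.0837, adjusted p = 5.48e-05 from GV). Its libraries differed little within each group, and WT MII and KO MII stood far apart. Cbx2, a Polycomb protein that reads methylated histone H3, rose in KO from 100.1/105 FPKM at GV to 181/183 at MI (log2 change 0.82, SE 0.183, adjusted p = 0.0162) and 179.8/221 at MII (log2 change 0.96, SE 0.183, adjusted p = 0.00564), while WT went from 86.1/72.3 at MI to 295/299 at MII. The MI call was lost when any KO GV or KO MI library was left out and with median scaling (log2 change 0.44, adjusted p = 0.236), and was given by 14 of 22 settings. The MII call was lost without KO MII replicate 2. Phf13, a PHD finger protein that binds methylated histone H3, rose alike in KO, from 160.2/142 FPKM at GV to 278/281 at MI (log2 change 0.89, SE 0.16, adjusted p = 0.00504) and 253/299 at MII (log2 change 0.86, SE 0.16, adjusted p = 0.00474), and was at 479/455 in WT MII. The MI call was lost without KO MI replicate 2, and with median scaling it was lost too (log2 change 0.50, adjusted p = 0.112), while the MII call depended on KO MII replicate 2. Kdm6a, an X-linked histone H3 demethylase, was at 13.4/26.2 FPKM in WT GV, 31.4/21.98 at MI and 99.96/86.8 at MII, and at 19.7/17.9, 41.8/52.4 and 42.7/55.4 in KO (log2 change 1.33, SE 0.376, adjusted p = 0.037 from GV to MII, lost when any KO library was left out). Ing1, a reader of histone methylation, was lower in WT MII (149.6/172 FPKM) than in WT GV (188/205), after 77.3/52.5 at MI, and no KO comparison was called.

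RNA-binding and decay factors gave 6 members of 65 eligible genes, 4.0% of members against 4.13% of eligible genes. Rbm14, a paraspeckle protein, was at 42.2/40.7 FPKM in WT GV, 35.4/39.8 at MI and 223/120.3 at MII, with WT MII libraries that differ by much. Zc3h3, a zinc finger protein of mRNA export, was at 41.6/47.8 FPKM in WT MI and 183/189 in WT MII, against 86.6/61.2 and 99.5/109 in KO MI and MII. Srsf4, a splicing factor, was the only one of the 6 called in KO: from 61.6/49.2 FPKM at GV it was at 108/133 at MI (log2 change 1.11, SE 0.263, adjusted p = 0.0223) and 126/82.9 at MII (log2 change 0.88, SE 0.263, adjusted p = 0.0458). Both calls were lost when KO GV replicate 2 or either KO MI library was left out, and the MII call also without KO GV replicate 1, KO MII replicate 1 or any library of WT GV or WT MI. With median scaling the MI change was not called (log2 change 0.72, adjusted p = 0.164). Lsm14a, a P-body protein that binds repressed mRNAs, was at 98.4/111 FPKM in WT MI, 253/295 in WT MII and 112/85.6 in KO MII. Zc3h18, which links the cap-binding complex to RNA decay, was at 18.9/50.1, 141/111 and 87.99/132 FPKM in the same groups. For Zc3h18 the KO MII and WT MII libraries overlapped, and for Lsm14a they did not.

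Membrane traffic gave 7 members of 60 eligible genes, 4.67% of members against 3.82% of eligible genes, and Arf5 was called in 3 comparisons. Arf5, a small GTPase of the Golgi, was at 540.0/511 FPKM in WT GV, 168/137 at MI and 462/543 at MII, while KO was at 165/153 at GV, 429/323 at MI and 195/133 at MII. The genotypes thus ran in opposite directions at each step, and KO GV was below WT GV (log2 change -1.72, SE 0.214, adjusted p = 0.00227) in a call that each removal of a library kept. That call was given by 19 of 21 settings, and was lost with only the compared groups in the fit and without the abundance trend (adjusted p up to 0.102). It rose from KO GV to KO MI (log2 change 1.22, SE 0.214, adjusted p = 0.00411) and fell from KO MI to KO MII (log2 change -1.20, SE 0.214, adjusted p = 0.00801). Both were lost without KO MI replicate 1, and the second also without KO MII replicate 2 and with median scaling (log2 change -0.62, adjusted p = 0.300). Sec31a, a coat protein of vesicles leaving the endoplasmic reticulum, was at 60.00/63.4 FPKM in KO GV and 116/107 in KO MII (log2 change 0.85, SE 0.251, adjusted p = 0.0449, lost when any KO library was left out), against 167/153 in WT MII. Ap3s1, an adaptor subunit, was at 18.4/3.88 FPKM in KO GV and 36.2/46.7 in KO MI (log2 change 2.11, SE 0.555, adjusted p = 0.0357, lost when any of 9 libraries was left out and given by 5 of 22 settings). Tbc1d22b and Tbc1d8, both with a domain of Rab GTPase-activating proteins, and Snx18, a sorting nexin, were at 121/112, 53.6/151 and 55.97/60.9 FPKM in WT MII and were not called in KO. The WT MII libraries of Tbc1d8 differ over 2-fold.

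Kinases and phosphatases gave 5 members of 43 eligible genes, 3.33% of members against 2.74% of eligible genes. Clk1, a kinase of splicing factors, was at 129/109.9 FPKM in WT GV, 103/107 at MI and 263/239 at MII. In KO it rose from 128/112 FPKM at GV to 243/327 at MI (log2 change 1.23, SE 0.193, adjusted p = 0.00209), and was at 254/232 at MII (log2 change 1.01, SE 0.193, adjusted p = 0.0054 from GV), overlapping with WT MII. The MII call held in all 22 settings and the MI call in all but 1, the rescaling to equal totals. Ppp1r12a, a myosin phosphatase subunit, was at 133/102 FPKM in KO GV and 204/180.1 in KO MII (log2 change 0.71, SE 0.21, adjusted p = 0.0427, adjusted p up to 0.202 over all alternatives and lost without KO GV replicate 2 or any library of WT GV, KO MI or KO MII), against 49.2/60.98 in WT MI and 201/185 in WT MII. Stk38l, an NDR kinase, Ppp1r3d, a glycogen-targeting phosphatase subunit, and Prkab1, a subunit of AMP-activated kinase, were at 111/80.7, 79.1/114 and 264/222 FPKM in WT MII and were not called in KO.

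Transcription factors and cofactors gave 5 members of 56 eligible genes, among them Ctnnb1, or 3.33% of members against 3.56% of eligible genes. Yap1, the effector of the Hippo pathway, was at 22.5/16.4 FPKM in WT MI and 52.3/72.2 in WT MII, against 46.1/43.2 and 34.7/28.5 in KO. Med15, a Mediator subunit, was at 69.7/60.9 and 228/178 FPKM in WT and 101/83.05 and 118/68.8 in KO at these stages. Mier2, a corepressor, was at 249/173 and 552/515 FPKM, and at 303/289.6 and 175/269.6 in KO. Except for Ctnnb1 none of the 5 was called in KO, and the last is Atf6b, an endoplasmic reticulum stress factor, at 28.5/43.7 FPKM in WT MI and 109.6/64.6 in WT MII. The ubiquitin ligases gave 3 members of 82 eligible genes, Rnf111, Rnf130 and Trim75, at 82.8/86.1, 87.2/95.4 and 275/223 FPKM in WT MII. Cytoskeleton and spindle gave 3 of 60, the centrosomal protein Cep78, the unconventional myosin Myo1c and the actin crosslinker Actn4, at 125/138, 78.98/84.1 and 139/105 FPKM. The ubiquitin and cytoskeleton lists gave 2.0% of members each, against 5.22% and 3.82% of eligible genes. None of these 6 members was called in KO. The lists hold 44 members in all, and 15 members have symbols of predicted genes or clones, of 117 eligible.

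**Figure D3:**
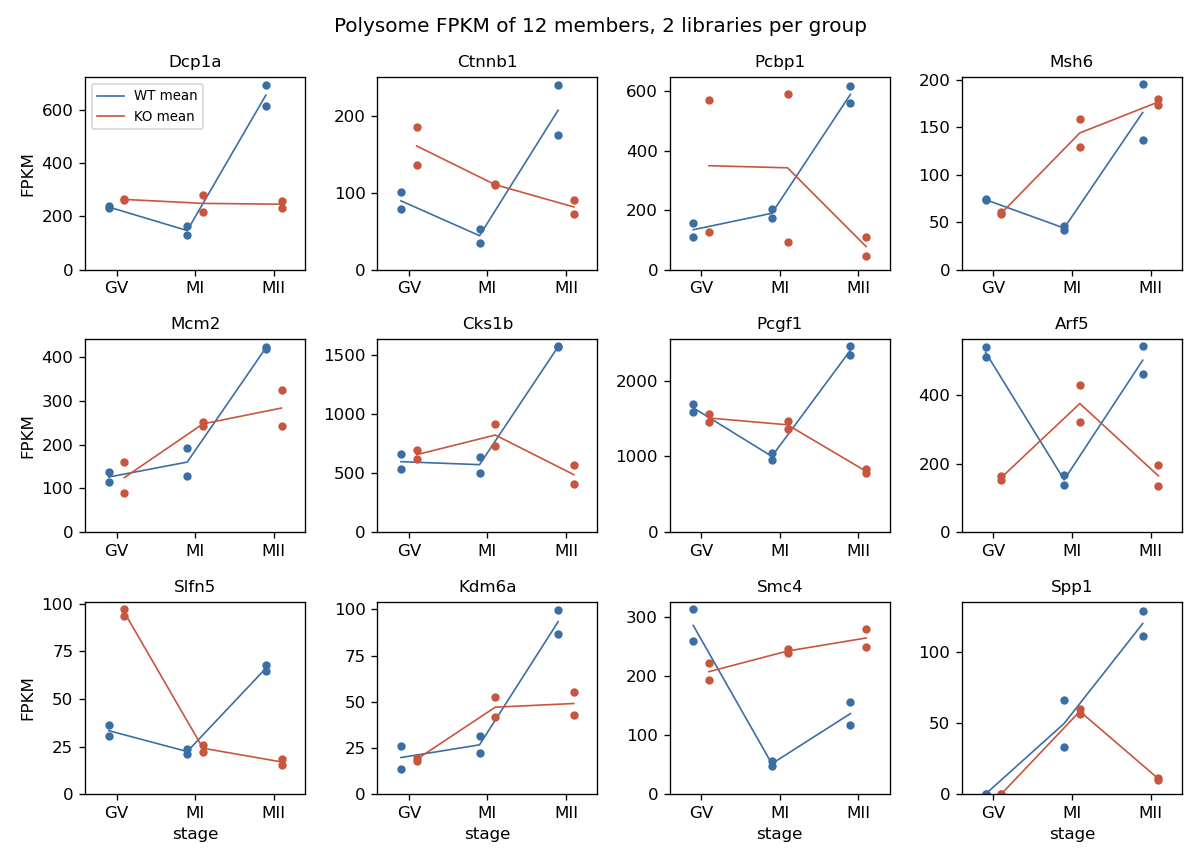
FPKM of 12 members at GV, MI and MII, with a dot for each library and a line through the group means, in WT and KO. Most WT lines are lowest at MI or change little from GV to MI, and all but that of Smc4 and Arf5 are highest at MII, while the KO lines of Pcgf1, Arf5, Cks1b and Spp1 fall from MI to MII and those of Msh6, Mcm2 and Kdm6a are higher at MI and MII than at GV.

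The step that defines the members in WT, from MI to MII, was then tested in KO libraries. No member rose from KO MI to KO MII (0 of 150 by limma, and 0 at an unadjusted p under 0.05), 11 fell (7.33%; 32 at an unadjusted p under 0.05), and 139 did not pass the test. Over all 11667 genes tested, 0.163% were called higher and 7.18% lower, so the share that fell was near the background, and among eligible genes 18 were called higher and 345 lower (21.9%). The median change was -0.32 on the log2 scale in members, -0.43 in eligible genes and -0.59 in all genes tested. Without overlap, both KO MII libraries were above both KO MI libraries in 23 members and below them in 71 (5.67% and 54.9% of all genes), and 56 overlapped. The count of 11 fell to 1 without KO MI replicate 1, to 2 without KO MI replicate 2, to 2 without KO MII replicate 2 and to 7 without KO MII replicate 1. With each library divided by its median ratio to all libraries, which removes the general shift of -0.59, limma called 0 members lower (6 at an unadjusted p under 0.05) and 4 higher (0.677% and 0.84% of all genes), and the members' median was 0.24. The 4 were Anp32b, Smu1, Afap1l2 and Ppp1r12a, named after their values were seen.

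**Figure D4:**
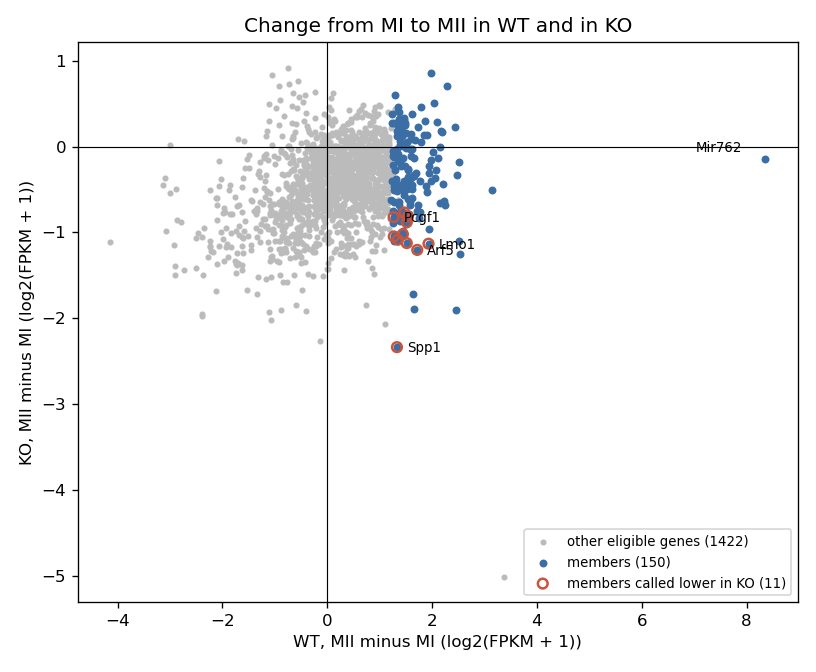
Change from MI to MII in WT (x axis) and in KO (y axis), each as the difference in mean log2(FPKM + 1), for 150 members and 1422 other eligible genes. The members lie to the right because the rule chose them there, and in KO they spread around a median of -0.32, with the 11 that were called lower circled.

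The members that fell in KO from MI to MII included Pcgf1, Arf5 and Cks1b, described above. Spp1, osteopontin, a secreted phosphoprotein, was listed at 0 in all 4 GV libraries, reached 65.9/33.5 FPKM in WT MI, then 129/111 in WT MII, but went from 56.6/59.9 in KO MI to 9.92/11.6 in KO MII (log2 change -2.34, SE 0.452, adjusted p = 0.0119). Lmo1, a LIM-only transcriptional cofactor, was at 847/831 FPKM in WT GV, 422/274 at MI and 1240.2/1363 at MII, and in KO at 845/955, 773/914 and 457/321 (log2 change -1.13, SE 0.21, adjusted p = 0.00963 from MI to MII). WT MII and KO MII thus lay on opposite sides of the common GV level for Lmo1. Nsmce1, a subunit of the SMC5-SMC6 complex, went from 189/175 to 105/69.2 FPKM (log2 change -1.08, SE 0.225, adjusted p = 0.0167), and Scap, the cholesterol-sensing escort of SREBP, from 119/115 to 59.00/54.97 (log2 change -1.02, SE 0.234, adjusted p = 0.0269). In WT MII these genes were at 197/169 and 91.2/103 FPKM, above their KO MII libraries. Ccdc84 fell from 117/109 to 59.4/44.3 FPKM (log2 change -1.12, SE 0.22, adjusted p = 0.0125), Scand1, a SCAN-domain protein, from 429.7/384 to 219.7/221 (log2 change -0.88, SE 0.156, adjusted p = 0.00794), and Ddi2, a protease that processes the transcription factor NFE2L1, from 163/165 to 104/82.96 (log2 change -0.81, SE 0.198, adjusted p = 0.0342). Of the 11 calls only that of Pcgf1 held when any single library was left out, and all 11 were lost with the 3 alternative scalings and without the abundance trend.

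Against KO GV, members moved both ways. In KO MI 23 members were higher (15.3%, against 8.89% of all genes tested) and 7 lower (4.67%, against 1.35% of all genes). Among eligible genes 741 were higher (47.1%) and 31 lower (1.97%), so members were called higher less often than eligible genes. The members' median was 0.33, that of eligible genes 0.75 and that of all genes 0.26. In KO MII 26 members were higher (17.3%, against 5.89% of all genes) and 19 lower (12.7%, against 10% of all genes). Among eligible genes 496 were higher (31.6%) and 187 lower (11.9%). The medians were 0.14 in members, 0.35 in eligible genes and -0.32 in all genes. These comparisons share the KO GV libraries. In KO MI against KO GV, the calls of Slfn5 and Spp1 alone, among members with symbols other than those of predicted genes, held in all 22 settings. Without KO MI replicates 1 and 2 in turn the first count of higher members was 9 and 8, and the lower count was 4 without replicate 1. The second count of higher members was 16 without KO GV replicate 2, 13 without KO MII replicate 1 and 9 without KO MII replicate 2. With median scaling 5 were higher and 11 lower in KO MI, while 32 were higher and 15 lower in KO MII (4.19%, 2.32%, 7.54% and 7.24% of all genes).

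Among members with symbols other than those of predicted genes, 12 changes between KO GV and KO MII with GV levels above 0 held in all 22 settings. Msh6 and Clk1, described above, rose, as did Smu1, a splicing factor, from 253/263 FPKM to 568/508 (log2 change 1.06, SE 0.137, adjusted p = 0.000525), and Afap1l2, an actin filament-associated adaptor, from 91.5/113 to 228/219.9 (log2 change 1.13, SE 0.174, adjusted p = 0.00155). Their WT MII levels were 715/619 and 387/345 FPKM. Pcgf1 fell, and so did Lmo1 (log2 change -1.23, SE 0.21, adjusted p = 0.00294), Nsmce1 (log2 change -1.81, SE 0.225, adjusted p = 0.000403), Scap (log2 change -1.24, SE 0.234, adjusted p = 0.00515) and Ccdc84 (log2 change -1.40, SE 0.22, adjusted p = 0.00184), from KO GV levels of 845/955, 271/336, 126/147 and 142/133 FPKM to the KO MII levels given above. Btf3, a partner of nascent chains at the ribosome, fell from 736/632 FPKM to 322/330.1 (log2 change -1.06, SE 0.149, adjusted p = 0.00091), while WT went from 584/549.9 at GV to 878/648 at MII. Slfn5 and Churc1 fell most among the named ones, by values given below. The symbols Smu1, Afap1l2, Btf3 and Churc1 were named after their values were seen.

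At GV few members were called between the genotypes. In KO GV 1 member was higher (0.163% of all genes tested) and 1 lower (1.4% of all genes) than in WT GV. The median difference was 0.04 on the log2 scale. Among eligible genes 11 were higher (0.7%) and 115 lower (7.32%), with a median of -0.145. The difference between members and eligible genes was not tested. With median scaling the counts were 1 and 1, against 0.197% and 0.96% of all genes and 1.02% and 5.22% of eligible genes. The lower one was Arf5, and the higher one was Slfn5, a protein of the Schlafen family, at 30.6/36.1 FPKM in WT GV and 93.9/97.2 in KO GV (log2 change 1.49, SE 0.288, adjusted p = 0.0319). The call of Slfn5 was lost when any one of the 8 libraries of WT GV, KO GV, KO MI and KO MII was left out. In KO it was down to 22.4/25.9 FPKM at MI (log2 change -1.95, SE 0.288, adjusted p = 0.00136) and 15.5/18.3 at MII (log2 change -2.44, SE 0.288, adjusted p = 0.000286), while WT was at 21.1/23.6 at MI and 67.6/64.7 at MII. Churc1 had a similar order of levels, 48.7/58.5, 41.3/22.8 and 96.6/77.5 FPKM in WT and 115/90.4, 30.1/25.9 and 17.3/19.9 in KO (log2 change -2.40, SE 0.338, adjusted p = 0.000928 from GV to MII).

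Some values carry a limit of the counting. Of the members, 34 overlap another gene of the table, 11 of them on the same strand, and the library kit is not stated to keep the strand, so reads of the partners may not be told apart. Among the named members these are Mir762, Gm15772, D330041H03Rik, Bcl7c, Bri3, Kcnq1, Rnf130, Tbc1d22b, Tbc1d8, Actn4, Msh6, Mcm3ap, Smc4, Ccdc84, Scand1, Ddi2, Slfn5 and Smu1.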

How the data were processed

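The authors deposited FPKM values for 23235 genes in 12 libraries of polysome-bound RNA, in a table of all libraries and in tables of single libraries that hold the same values. The tools listed per the submitters' processing notes, with no role stated, are Cufflinks 2.2.1, TopHat2 2.0.11 with Bowtie2 2.1.0, and CASAVA 1.8, on build mm9. Per the labels' protocols, each library came from 500 pg of cDNA that had been amplified before Tn5 tagmentation. Because FPKM is not a count, values were tested as log2(FPKM + 1), so that changes of low genes are understated, with limma 3.58.1 in R 4.3.3 (empirical Bayes with an abundance trend) on 11667 genes with a mean of at least 1 FPKM, in 1 fit of 6 groups with 6 residual degrees of freedom and Benjamini-Hochberg adjustment over all genes tested at 0.05, two-sided. All 150 members passed the filter, as the rule's minimum of 50 FPKM in WT MII assures. The test was checked on simulated data. With 2 libraries in each group it can miss real changes, so a member that was not called is not shown to be unchanged. The members and gene lists were chosen with earlier results of these data known.

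Genes were named by a rule: the 20 highest members and the 3 on each side of the border, up to 10 members with the largest called change in each direction from KO MI to KO MII, up to 5 for KO GV against WT GV, up to 6 of each gene list in the order of the rule, and Cnot6l. One of the genes the rule names is not reported here. Other names are said to have been chosen after their values were seen, and those beside the sequences follow the order of the ranking. Alternatives were the pseudocount 0.1, no filter, rescaling to the same total (TPM), median scaling over genes of at least 10 FPKM, quantile normalization, fewer libraries in the fit, no abundance trend, the replicate number as a block and the removal of each library, which with the main fit make 22 settings.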

Additional observations from a re-analysis of the deposited data

Results flagged for a closer look

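In WT both MII libraries lay above both MI libraries for every member, by the rule, while in KO both MII libraries lay below both MI libraries for 71 of them. That is 47.3% of members, against 68.6% of eligible genes and 54.9% of all genes tested. The difference between the genotypes was not tested, because the rule used the WT libraries.

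In KO 11 of these 71 were also called lower at MII than at MI by limma, 7.33% of members against 21.9% of eligible genes and 7.18% of all genes tested. All 11 calls were lost with the 3 alternative scalings and without the abundance trend. On the log2 scale the change from KO MI to KO MII was -2.34 for Spp1, -1.20 for Arf5, -1.13 for Lmo1, -1.12 for Ccdc84, -1.08 for Nsmce1, -1.05 for A630055G03Rik, -1.02 for Scap, -0.88 for Scand1, -0.82 for Pcgf1, -0.81 for Ddi2 and -0.77 for Cks1b.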

How the results depend on the processing

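For KO MII against KO MI, members called higher numbered 3 with equal totals, 4 with median scaling and 4 with quantile normalization, and those called lower 0 with each of these and 0 without the abundance trend, while the median change reversed to 0.10, 0.24 and 0.32. For KO MI against KO GV the higher count was 1, 5 and 11 with the 3 scalings and 5 without the trend, the lower count 17, 11 and 12, and the median -0.29, -0.051 (both reversed) and 0.04. For KO MII against KO GV the higher count was 15 with equal totals, 46 with quantile normalization, 14 with only the compared groups and 8 without the trend, the lower count 29 with equal totals and 12 without the trend, and the median -0.041 (reversed), 0.33 and 0.51. For KO GV against WT GV the higher count was 2 with equal totals and with quantile normalization, both counts were 0 with only the compared groups and 0 without the trend, and the median was 0.27, 0.13 and 0.18. The cause of these moves was not tested.

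When each library was left out in turn, the higher and lower counts ran from 0 to 0 and 1 to 16 for KO MII against KO MI (median -0.35 to -0.19), 8 to 26 and 4 to 8 for KO MI against KO GV (0.31 to 0.44), 9 to 29 and 15 to 24 for KO MII against KO GV (0.10 to 0.17), and 0 to 2 and 1 to 2 for KO GV against WT GV (0.02 to 0.10). Of the 150 members, 106 to 120 were taken again without a library of WT MI or WT MII, 93 with a minimum of 25 FPKM and 91 with 100 FPKM. The share with the polyadenylation element was 29.2% in the last 50 and 54.4% in the last 200 bases. With the replicate number as a block the higher and lower counts were 0 and 10, 22 and 7, 25 and 19, and 1 and 1, in the order above. The labels do not say that the numbers pair libraries. Replicate differences of the groups correlated at -0.03 to 0.05 across all genes tested, and at -0.79 to 0.87 across members. Without Mir762 the members gave -0.16 to 0.39, and 0.24 to 0.39 between the KO stages. Of 74 calls in members with symbols other than those of predicted genes, 15 held in every setting and none changed sign. FPKM hides depth, so the precision of low values is unknown.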

Other observations

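A few members differed between the 2 replicates of KO in the same way at all 3 stages. Replicate 1 was over 1.5 times replicate 2 at each KO stage for 6 members (4.0%), against 1.34% of eligible genes and 2.43% of all genes tested. The opposite held for 0 members, 0 eligible genes and 1.84% of all genes, so eligible genes split in the same direction only. Pcbp1, an RNA-binding protein with KH domains, was at 571/128 FPKM in KO GV, 590.4/93.6 in KO MI and 110.4/45.1 in KO MII, and at 157/111, 205/174 and 559.6/618 in WT. The others were Bcl7c, Bri3, Ptov1, Psip1 and Mir762, all named after their values were seen. Psip1, a chromatin-binding protein, was at 183/102 FPKM in KO GV, 179.9/89.2 in KO MI and 129.8/86.3 in KO MII. None of these 6 was called from KO MI to KO MII.

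The clones D330041H03Rik, A630055G03Rik and A830007P12Rik, also named after their values were seen, had the course of Slfn5 and Churc1. D330041H03Rik was at 41.7/53.9 FPKM in WT GV, 18.9/31.2 at MI and 62.9/64.99 at MII, and at 138/127, 24.2/21.5 and 14.6/11.3 in KO (log2 change -3.27, SE 0.329, adjusted p = 9.79e-05 from GV to MII). A630055G03Rik was at 128/128 FPKM in KO GV and 18.4/11.97 in KO MII (log2 change -3.02, SE 0.278, adjusted p = 5.48e-05), and A830007P12Rik at 88.3/101 and 13.2/18.1 (log2 change -2.53, SE 0.316, adjusted p = 0.000411). In WT MII these were at 89.9/84.1 and 88.8/94.6 FPKM, above their WT GV libraries.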
